A study of Rattus norvegicus with 46 samples.

Results

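Myosin light chains, the kinase that phosphorylates them and the proteins that bind the myosin rod were followed in paralysed rat muscle through 7 genes: Myl1, Myl2, Myl3, Mylk2, Mybpc1, Mybpc2 and Mybph. They were taken by gene name from the array's annotation, and each has 1 probe set. All 7 passed the filter on dim probe sets and stand among 9289 genes tested. The samples came from the proximal gastrocnemius of 23 female Sprague-Dawley rats, a calf muscle that mixes fast and slow fibres. Every rat was anaesthetised with isoflurane, paralysed with the snake toxin α-cobrotoxin, which blocks transmission from nerve to muscle, and mechanically ventilated. A lever flexed and extended the ankle of the left leg passively at 13.3 cycles per minute, and the opposite leg stayed unloaded. The shortest experiment had 6 h of loading and the others 12 h per day. Loaded and unloaded legs were studied in 13 rats kept for 6 h to 4 d, in 4 rats kept for 5 to 8 d and in 6 rats kept for 9 to 14 d, which gives 46 arrays. All 6 groups carry anaesthesia, paralysis and ventilation, so later windows are set against rats paralysed for 6 h to 4 d, and each window pools rats of different durations. Ages are not given in the sources used here.

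Each myosin head carries an essential and a regulatory light chain wrapped around its lever arm. Myl1 encodes the essential chain of fast fibres, Myl3 the essential chain of slow fibres and of the heart ventricle, and Myl2 the regulatory chain of those same slow fibres and ventricle. Mylk2 encodes the skeletal muscle light chain kinase, which calcium and calmodulin switch on to phosphorylate the regulatory chain and raise the force of later twitches, above all in fast fibres. Mybpc1 and Mybpc2 encode the slow and fast forms of myosin-binding protein C, which sits on the thick filament and restrains cross-bridge cycling, and Mybph encodes the shorter relative myosin-binding protein H.

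Promoters of 4 of the 7 genes were listed in the RefSeq table of build GRCr8, as 5 entries that run from 250 bases before to 50 bases after a start. Myl2, Mylk2 and Mybph were not among them. Those of Mybpc2, whose RNA fell with duration in both legs, and Myl3, whose RNA fell in unloaded legs before the date code was considered, are printed beside those of Mybpc1 and Myl1, whose RNA did not pass the test. Capitals mark the E-box CANNTG, the letters to which myogenin and its relatives bind, and the MEF2 motif. Both were searched on both strands. The Mybpc2 entry lies at chr1:104154052-104154351 on the minus strand, the Myl3 entry at chr8:119616844-119617143 on the plus strand, the Mybpc1 entry at chr7:24903324-24903623 on the minus strand and the Myl1 entry at chr9:75897750-75898049 on the minus strand.
Mybpc2: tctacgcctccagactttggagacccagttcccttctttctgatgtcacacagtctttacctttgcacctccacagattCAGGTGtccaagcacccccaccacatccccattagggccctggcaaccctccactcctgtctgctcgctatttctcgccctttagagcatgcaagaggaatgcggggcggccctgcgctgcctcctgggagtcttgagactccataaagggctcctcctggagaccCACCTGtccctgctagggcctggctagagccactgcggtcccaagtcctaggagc
Myl3: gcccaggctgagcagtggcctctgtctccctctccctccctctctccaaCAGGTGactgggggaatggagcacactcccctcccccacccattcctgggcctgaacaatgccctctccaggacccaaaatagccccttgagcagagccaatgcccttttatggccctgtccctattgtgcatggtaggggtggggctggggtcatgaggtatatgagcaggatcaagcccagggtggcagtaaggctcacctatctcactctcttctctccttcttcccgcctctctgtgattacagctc
Mybpc1: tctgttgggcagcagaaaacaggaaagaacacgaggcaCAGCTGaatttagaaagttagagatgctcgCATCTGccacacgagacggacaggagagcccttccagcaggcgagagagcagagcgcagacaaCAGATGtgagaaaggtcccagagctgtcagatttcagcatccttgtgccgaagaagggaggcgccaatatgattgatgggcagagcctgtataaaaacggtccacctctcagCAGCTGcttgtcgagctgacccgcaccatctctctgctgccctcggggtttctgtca
Myl1: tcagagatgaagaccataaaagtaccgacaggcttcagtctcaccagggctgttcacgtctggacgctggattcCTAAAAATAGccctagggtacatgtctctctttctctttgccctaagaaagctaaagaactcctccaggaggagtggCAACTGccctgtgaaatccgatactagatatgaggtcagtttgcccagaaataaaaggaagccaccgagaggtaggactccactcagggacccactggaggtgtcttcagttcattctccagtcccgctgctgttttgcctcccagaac
Mybpc2 held 2 E-boxes, CAGGTG and CACCTG. Myl3 held 1, CAGGTG, and Mybpc1 held 4. Myl1 held 1 E-box and, further from its start, 1 match to the MEF2 motif, the run CTAAAAATAG. A second Myl1 entry, at chr9:75907647-75907946 on the minus strand, held 1 E-box and no MEF2 match. Of 33469 promoter entries of this length, 72.1% held at least 1 E-box and 3.29% a MEF2 match. A match describes the letters of this window only. It is not a shown binding site, and E-boxes stood in genes that fell as well as in genes that did not pass.

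Values are log2 expression, where a difference of 1 is a doubling of signal. They ran from 1.92 to 14.38 over the whole table, and the array medians lay between 6.07 and 6.20. The 5 skeletal fibre markers (Acta1, Ckm, Des, Mb and Cav3) were all measured, and their summed signal lay between 15.73 and 16.10 in every leg. The brightest markers weigh most in such a sum, so it does not show that each marker held its level. At 9 to 14 d against 6 h to 4 d, 2 of the 5 fell in loaded legs. In unloaded legs 1 rose and 3 fell. The labels carry a date code, of which 5 occur. Code 4 holds 6 rats, all of 6 h to 4 d, code 5 holds 4 rats, all of the later windows, and only code 3 holds all windows, with 4, 2 and 4 rats from the earliest to the latest. Duration and date code can therefore be told apart only in part, and window results of the 7 genes are given with and without this code. Those of other genes and lists are given without it. Over all genes, 9 to 14 d against 6 h to 4 d had 4110 genes past the test in loaded legs and 4232 in unloaded legs, but 453 and 904 within code 3 alone, where fewer rats enter the fit. Rats 35 and 37, of the earliest window and code 3, had the 2 lowest unloaded-leg values of Myl2 and of Myl3 in that window, and window values without them are given where they differ. The 2 legs of a rat were paired by consecutive label numbers, which is an inference. Rats are separate animals. In the window tests the p-values measure the spread among rats of 1 kind of leg. In the leg tests they measure the spread of the leg difference among rats, which rests on the inferred pairing. Changes with duration in loaded legs and in unloaded legs come from the same 23 rats and are not independent of each other.

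Passive loading shifted none of the 7 genes past the test. In the comparison of loaded with unloaded legs over all rats (limma, rat as a block, Benjamini-Hochberg adjustment over all genes, threshold 0.05), 0 of 7 passed, against 2.33% of all genes. Within windows 0 of 7 passed at 6 h to 4 d (0% of all genes), at 5 to 8 d (0%) and at 9 to 14 d (0.269%). The smallest adjusted p of the 7 over all rats was 0.668, for Mylk2. At an unadjusted p under 0.05 the counts over all rats were 0 of 7 and 1707 of 9289 genes. Within windows that looser count was 0 of 7, 1 of 7 and 0 of 7, against 1075, 644 and 1205 genes.

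The intervals differed widely in width. For Myl1 the difference over all rats was 0.01 (95% confidence interval -0.04 to 0.05). Its mean of 13.74 lies above 99.9% of genes in a table that ends at 14.38, and whether signal that high still follows the RNA in proportion was not tested, so its narrow intervals are no bound on the RNA. For Mylk2 it was 0.07 (-0.09 to 0.22), for Mybpc1 0.03 (-0.09 to 0.16) and for Mybpc2 -0.06 (-0.35 to 0.22). For Mybph it was -0.01 (-0.40 to 0.38). The slow light chains were far less settled, with -0.22 (-0.93 to 0.48) for Myl2 and 0.11 (-0.89 to 1.12) for Myl3.

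The 1 gene under an unadjusted 0.05 was Mybpc1, the slow myosin-binding protein C, at 5 to 8 d. It read 12.59, 12.68, 13.07 and 12.84 in loaded legs of rats 41, 43, 53 and 55, against 12.66, 12.61, 12.63 and 12.05 in their unloaded legs. Loaded legs were higher in 3 of 4 rats, and the groups overlapped. The difference was 0.31 (SE 0.14, limma p = 0.031, adjusted p = 0.648). With array quality weights it was 0.41 (adjusted p = 0.0085), and the fast form Mybpc2 then differed by -1.0 (adjusted p = 0.0085), against -0.16 without weights. The leg differences were split by date code. In rats 41 and 43, of code 3, they were -0.07 and 0.07 for Mybpc1 and 0.60 and 1.07 for Mybpc2. In rats 53 and 55, of code 5, they were 0.44 and 0.79 for Mybpc1 and -1.37 and -0.94 for Mybpc2.

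The effect of loading was also compared between windows. Of the 7 genes 0 passed in each of the 3 comparisons, 5 to 8 d minus 6 h to 4 d, 9 to 14 d minus 6 h to 4 d and 9 to 14 d minus 5 to 8 d, as did 0%, 0% and 0% of all genes (limma; 557, 717 and 248 genes at an unadjusted p under 0.05, with 1, 0 and 0 of the 7). The 1 was again Mybpc1, whose loading effect was higher by 0.34 at 5 to 8 d than at 6 h to 4 d (SE 0.15, adjusted p = 0.823). For Myl2 the loading effect at 9 to 14 d exceeded that at 6 h to 4 d by 1.36, with an interval from -0.26 to 2.99. Its sign depended on the setting. Other settings gave -0.18 to 1.38 for this difference and -0.8 to 0.54 for the loading effect of Myl2 at 6 h to 4 d, none past the test.

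**Figure D1:**
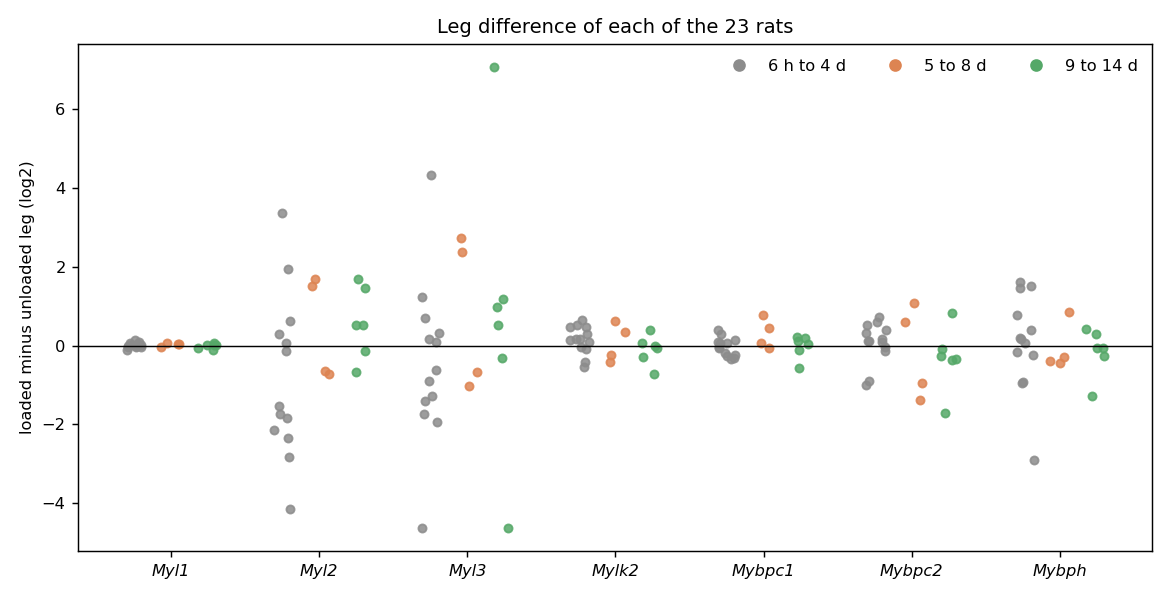
Difference between the loaded and the unloaded leg (log2) of each of the 23 rats, 1 point per rat, coloured by window, for the 7 genes. Myl2 spans -4.14 to 3.38 and Myl3 -4.63 to 7.08, while Myl1 stays between -0.12 and 0.13.

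The leg difference varied widely among rats in the slow light chains. Myl3 differed between the legs by -4.63 to 7.08 on the log2 scale, with an SD of 2.55 over 23 rats, the 3rd largest of 9289 genes. Myl2 differed by -4.14 to 3.38 (SD 1.79, the 11th largest). The heavy chain of slow fibres, Myh7, ranked 4th (SD 2.52) and Myh2, the heavy chain of fast oxidative fibres, ranked 8th (SD 2.12), while the median gene had an SD of 0.24.

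Rats moved in opposite directions. Myl3 was higher in the loaded leg in 12 of 23 rats and lower in 11, and it differed by more than 2 in 6 rats. In rat 51, at 9 to 14 d, Myl3 read 12.04 in the loaded leg and 4.96 in the unloaded one. In rat 47, of the same window, it read 5.80 in the loaded leg and 10.42 in the unloaded one. Myl2 was higher in the loaded leg in 11 rats and lower in 12, with 3.38 in rat 37 and -4.14 in rat 17 as the extremes. The pairing of rats 17 and 51, and of rats 19, 21, 23 and 27, is uncertain. The labels alone do not set these 6 rats apart, and the pairs of the other rats are inferred too. Without these 6 rats, a setting chosen after seeing the data, Myl3 spanned -4.63 (rat 47) to 4.34 (rat 37) with 10 of 17 rats higher in the loaded leg, and Myl2 spanned -2.35 (rat 13) to 3.38 (rat 37) with 9 of 17 higher. In bulk samples, fewer fibres of a type and less RNA per fibre cannot be told apart.

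The slow light chains moved together with the slow heavy chain. Across the 23 rats the leg difference of Myl3 correlated with that of Myh7 at r = 0.93 (Spearman rho 0.94) and that of Myl2 at r = 0.91 (rho 0.92), and Myl2 with Myl3 at r = 0.81 (rho 0.94). Each had a permutation p of 1e-05, the smallest that 100000 resamples can give (1.3e-05 after Benjamini-Hochberg over 4 relations). All 3 are genes of slow fibres, and the shuffle ran over all windows and date codes. The p-values therefore say only that the genes moved together, and why they did was not tested. Without the 2 rats farthest out on the first gene, r was 0.92, 0.88 and 0.73 in the same order, where rats 47 and 51 were left out for Myl3 and rats 17 and 37 for Myl2. Within date code 3 (10 rats) the values were 0.93, 0.88 and 0.76, and within the 13 rats of 6 h to 4 d they were 0.94, 0.98 and 0.96. In the 6 rats of 9 to 14 d they were 0.94, 0.95 and 0.88. Without the 6 rats of uncertain pairing they were 0.89, 0.90 and 0.82 over 17 rats. The 5 to 8 d window has too few rats for a value.

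**Figure D2:**
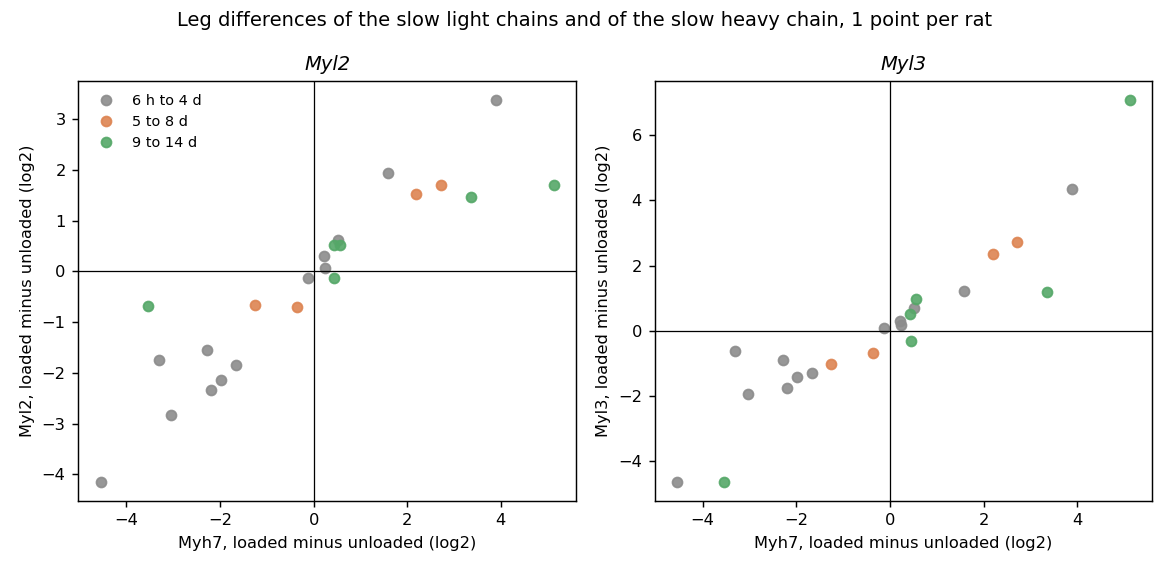
Leg differences (loaded minus unloaded, log2) of Myl2 and of Myl3 on the vertical axes against that of Myh7 on the horizontal axis, 1 point per rat, coloured by window. Points run from lower left to upper right in both panels, with r = 0.91 for Myl2 and r = 0.93 for Myl3.

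Myl1 had an SD of 0.06 (rank 9286 of 9289), and Myl11, the fast regulatory chain, had 0.14. Both are read with the limit of high signal given above for Myl1. Mybpc2 had an SD of 0.72 and Mybph of 0.98, ranks 220 and 77. Mylk2 had 0.38 and Mybpc1 0.29, ranks 1477 and 2896. For Myl1 and Mybpc2 r was 0.52 (rho 0.47, permutation p = 0.012 and 0.024, and the same after adjustment), but without rats 17 and 51 it was 0.31, and without the 6 rats of uncertain pairing 0.22. Within the 13 rats of 6 h to 4 d it was 0.62 (rho 0.78), within the 6 rats of 9 to 14 d 0.87 (rho 0.49), within date code 3 0.80 (rho 0.61) and within the 6 rats of date code 4 0.70 (rho 0.89). Over all rats the relation thus depends on which rats enter it.

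Between windows several of the 7 genes passed the test. At 5 to 8 d against 6 h to 4 d, 2 of 7 passed in loaded legs, both lower, against 39% of all genes, and 3 of 7 in unloaded legs, all lower, against 35.9%. At 9 to 14 d against 6 h to 4 d, 3 of 7 passed in loaded legs, 1 higher and 2 lower, against 44.2%, and 5 of 7 in unloaded legs, 1 higher and 4 lower, against 45.6%. Many genes of the array passed in these comparisons, and nothing particular to the 7 is read from the counts. The median difference of the 7 genes in that last pair was -1.30 in loaded legs and -1.84 in unloaded legs, against 0.08 and 0.07 over all genes. In loaded legs this median is the value of Myl2, which did not pass. The medians are without the date code, and the genes were chosen with earlier results known, so nothing particular is read from them either. Comparisons of the later windows share the legs of 6 h to 4 d and are given side by side.

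**Figure D3:**
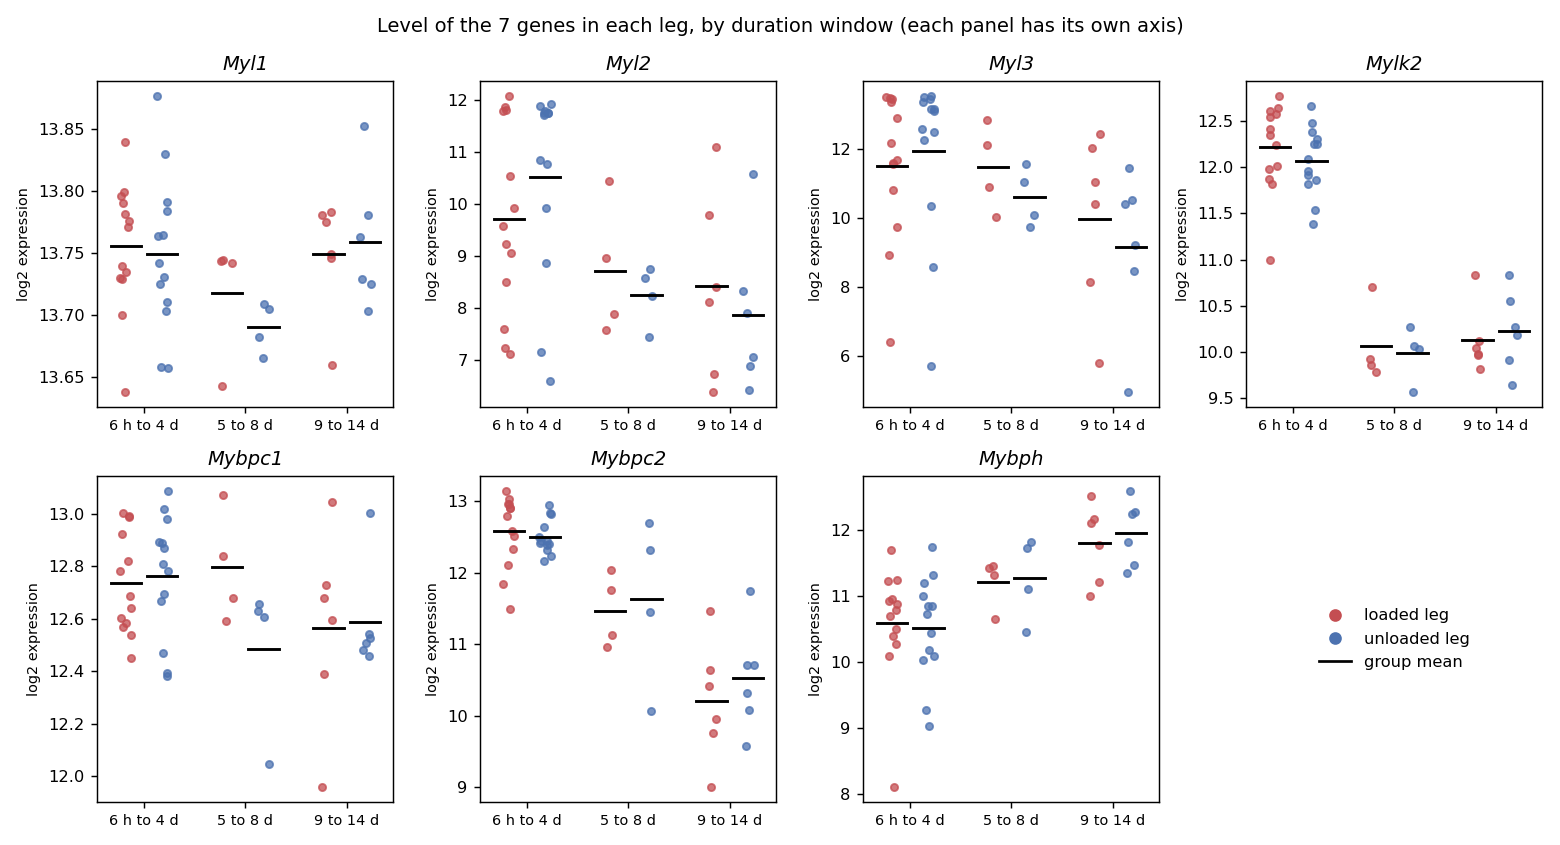
Log2 expression of the 7 genes in each leg, 1 point per leg, by window, with loaded legs left of unloaded legs and a bar at each group mean. Mylk2 lies at or above 10.99 in every leg of 6 h to 4 d and at or below 10.83 in every later leg.

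Mylk2, the light chain kinase, fell in both legs and in both later windows. In loaded legs its lowest, median and highest value was 10.99, 12.35 and 12.77 at 6 h to 4 d. It read 10.70, 9.92, 9.86 and 9.79 at 5 to 8 d, and its lowest, median and highest value at 9 to 14 d was 9.82, 10.01 and 10.83. In unloaded legs the corresponding values were 11.38, 12.09 and 12.66 at 6 h to 4 d, then 10.07, 9.57, 10.27 and 10.04 in the 4 rats of 5 to 8 d, and 9.64, 10.23 and 10.83 at 9 to 14 d. No later leg reached the lowest leg of 6 h to 4 d, on either side. Mylk2 at 5 to 8 d fell by 2.15 in loaded legs (SE 0.24, 4.43-fold, adjusted p = 2.29e-06) and fell by 2.08 in unloaded legs (SE 0.20, 4.23-fold, adjusted p = 2.82e-07). By 9 to 14 d it fell by 2.09 in loaded legs (SE 0.21, 4.25-fold, adjusted p = 9.84e-08) and fell by 1.84 in unloaded legs (SE 0.18, 3.57-fold, adjusted p = 3.14e-08). The latest window differed from the middle one by 0.06 in loaded legs (interval -0.50 to 0.62) and by 0.25 in unloaded legs (-0.23 to 0.72), so the lower level was already present at 5 to 8 d. Leaving out any 1 rat ended none of these 4 calls.

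Mybpc2, the fast myosin-binding protein C, fell in both legs. In loaded legs its lowest, median and highest value was 11.50, 12.80 and 13.15 at 6 h to 4 d. It read 12.04, 11.13, 10.95 and 11.75 at 5 to 8 d, and spanned 9.00, 10.18 and 11.47 at 9 to 14 d. In unloaded legs it spanned 12.16, 12.45 and 12.95 at 6 h to 4 d, read 11.45, 10.06, 12.32 and 12.69 at 5 to 8 d, and spanned 9.58, 10.51 and 11.74 at 9 to 14 d. The latest window lay wholly below the earliest in both legs, while the middle one overlapped with both. Mybpc2 at 9 to 14 d fell by 2.38 in loaded legs (SE 0.28, 5.21-fold, adjusted p = 7.73e-07) and fell by 1.98 in unloaded legs (SE 0.28, 3.95-fold, adjusted p = 7.06e-06). Its level at 5 to 8 d fell by 1.11 in loaded legs (SE 0.33, 2.17-fold, adjusted p = 0.0093) and fell by 0.88 in unloaded legs (SE 0.33, 1.83-fold, adjusted p = 0.0396). At 5 to 8 d in unloaded legs the difference was -0.35 without rat 43 (adjusted p = 0.336) and -0.28 with array quality weights (adjusted p = 0.292). Without rat 13, 19, 23, 33 or 41 it lay between -0.86 and -0.81, close to its value over all rats, while the adjusted p lay between 0.0509 and 0.0992. In loaded legs it was -0.94 without rat 53 (adjusted p = 0.0546).

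Mybph, myosin-binding protein H, was the only one of the 7 that rose. In loaded legs its lowest, median and highest value was 8.10, 10.78 and 11.69 at 6 h to 4 d, it read 10.65, 11.32, 11.42 and 11.46 at 5 to 8 d, and it spanned 11.002, 11.93 and 12.52 at 9 to 14 d. In unloaded legs it spanned 9.03, 10.73 and 11.74 at 6 h to 4 d, read 11.11, 10.45, 11.82 and 11.73 at 5 to 8 d, and spanned 11.35, 12.02 and 12.59 at 9 to 14 d. In each leg 4 of the 6 latest values exceeded every value of the earliest window, and the groups overlapped. Mybph at 9 to 14 d was higher by 1.20 in loaded legs (SE 0.34, 2.30-fold, adjusted p = 0.0070) and by 1.44 in unloaded legs (SE 0.32, 2.71-fold, adjusted p = 9.86e-04). Its difference at 5 to 8 d was 0.62 in loaded legs (adjusted p = 0.229) and 0.76 in unloaded legs (adjusted p = 0.114), neither past the test. Without rat 43 the difference in unloaded legs at 5 to 8 d was 1.04 and passed (adjusted p = 0.047).

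Myl2, the slow regulatory chain, was widely spread from the start. In loaded legs its lowest, median and highest value was 7.13, 9.58 and 12.08 at 6 h to 4 d, it read 7.58, 7.88, 10.45 and 8.96 at 5 to 8 d, and it spanned 6.39, 8.27 and 11.10 at 9 to 14 d. In unloaded legs it spanned 6.60, 11.72 and 11.92 at 6 h to 4 d, read 8.23, 8.59, 8.74 and 7.44 at 5 to 8 d, and spanned 6.42, 7.48 and 10.57 at 9 to 14 d. Of the 13 unloaded legs of the earliest window, most lay above every later unloaded leg, and a few lay within the later range, so the windows overlapped in both legs. At 9 to 14 d Myl2 differed by -1.30 in loaded legs (SE 0.79, adjusted p = 0.192), not past the test, and fell by 2.66 in unloaded legs (SE 0.75, 6.32-fold, adjusted p = 0.0061). At 5 to 8 d it differed by -1.0 in loaded legs (adjusted p = 0.414) and fell by 2.27 in unloaded legs (SE 0.87, 4.82-fold, adjusted p = 0.0440). The fall at 5 to 8 d missed the threshold when any of 13 rats was left out, with -2.0 without rat 55 as the smallest (adjusted p = 0.147). Those rats were 11, 13, 15, 17, 19, 21, 27, 29, 31, 41, 43, 53 and 55.

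Myl3, the slow essential chain, had a still larger spread than Myl2. In loaded legs its lowest, median and highest value was 6.42, 11.69 and 13.50 at 6 h to 4 d, it read 10.02, 10.90, 12.83 and 12.12 at 5 to 8 d, and it spanned 5.80, 10.73 and 12.43 at 9 to 14 d. In unloaded legs it spanned 5.72, 13.10 and 13.55 at 6 h to 4 d, read 11.05, 11.57, 10.10 and 9.75 at 5 to 8 d, and spanned 4.96, 9.82 and 11.45 at 9 to 14 d. Myl3 exceeded its array's median on 43 of 46 arrays. The values of 5.80, 5.72 and 4.96 lay below the array medians, so the size of differences that rest on them is uncertain. The windows overlapped in both legs. Myl3 at 9 to 14 d differed by -1.53 in loaded legs (SE 0.97, adjusted p = 0.209), not past the test, and fell by 2.77 in unloaded legs (SE 1.00, 6.84-fold, adjusted p = 0.0268). Without rat 51, whose unloaded leg held the value of 4.96, that fall was -1.93 (adjusted p = 0.110), and without rat 49 it was -2.63 (adjusted p = 0.0579). At 5 to 8 d it differed by -0.04 in loaded legs (adjusted p = 0.981) and by -1.33 in unloaded legs (adjusted p = 0.390). That the falls of Myl2 and Myl3 passed in unloaded legs and not in loaded ones does not show that the legs differ. The test of that difference, the change of the loading effect from the earliest to the latest window, gave 1.36 for Myl2 (adjusted p = 0.718) and 1.24 for Myl3 (adjusted p = 0.844). In other settings that change ran from -0.18 to 1.38 for Myl2 and from -0.69 to 1.26 for Myl3, none past the test.

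Myl1 and Mybpc1 did not pass in any window comparison over all rats. With array quality weights Mybpc1 passed in unloaded legs, at -0.29 for 5 to 8 d (adjusted p = 0.0206) and -0.26 for 9 to 14 d (adjusted p = 0.0378). Myl1, the fast essential chain, lay between 13.64 and 13.88 in all 46 legs (the table reaches 14.38). At 9 to 14 d it differed by -0.01 in loaded legs (interval -0.11 to 0.09) and by 0.01 in unloaded legs (-0.10 to 0.12). Mybpc1 lay between 11.96 and 13.09 and differed by -0.17 in loaded legs (-0.42 to 0.08) and by -0.18 in unloaded legs (-0.42 to 0.06). For the fast form Mybpc2 the corresponding intervals were -2.96 to -1.80 in loaded legs and -2.56 to -1.40 in unloaded legs. The difference between the 2 genes was not itself tested. Myl11, the fast regulatory chain, fell by 0.30 in loaded legs (SE 0.08) and fell by 0.28 in unloaded legs (SE 0.07). Its means at 6 h to 4 d were 13.49 and 13.44, so the limit of high signal given for Myl1 holds for Myl11 too.

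**Figure D4:**
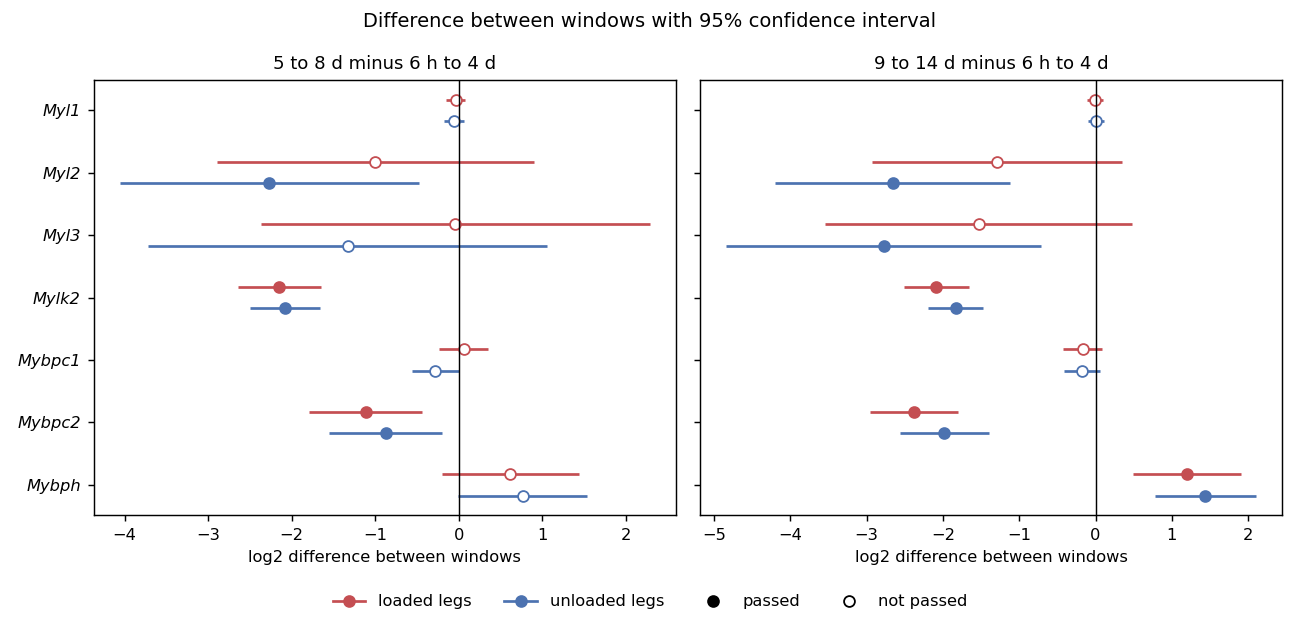
Difference of each later window from 6 h to 4 d (log2) for the 7 genes in loaded and unloaded legs, with 95% confidence intervals; filled points passed the test and open points did not. Mylk2 and Mybpc2 lie below 0 in all 4 comparisons, and Mybph lies above 0 at 9 to 14 d.

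Between the 2 later windows, 9 to 14 d against 5 to 8 d, 0 of 7 genes passed in loaded legs (0.226% of all genes, 1341 genes at an unadjusted p under 0.05) and 0 of 7 in unloaded legs (0.226%, 1445 genes; limma in both). Mybpc2 alone of the 7 was under an unadjusted 0.05. It differed by -1.27 in loaded legs (interval -2.03 to -0.51, adjusted p = 0.120) and by -1.11 in unloaded legs (-1.87 to -0.35, adjusted p = 0.138). It passed in loaded legs without rat 59 (-1.52, adjusted p = 0.0483) and in unloaded legs without rat 43 (-1.63, adjusted p = 0.0062).

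With the date code taken into account, Mylk2 and Mybpc2 passed the test at 9 to 14 d and the other 5 genes did not. The code as a block and code 3 alone both rest on the same 4 rats of code 3 kept for 6 h to 4 d. The 2 settings are therefore not independent of each other. At 9 to 14 d against 6 h to 4 d, Mylk2 was -1.76 in loaded legs and -1.77 in unloaded legs with the code as a block, and -1.91 and -1.78 within code 3 alone, all 4 past the test. Mybpc2 was -2.29 in loaded legs and -2.37 in unloaded legs with the block, and -2.51 and -2.27 within code 3, again all past the test. Mybph did not pass. It was 0.97 in loaded legs (adjusted p = 0.140) and 0.60 in unloaded legs (adjusted p = 0.278) with the block, and 0.92 (adjusted p = 0.077) and 0.64 (adjusted p = 0.254) within code 3.

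The falls of the slow chains in unloaded legs did not pass either. Myl2 was -1.18 with the block (adjusted p = 0.323) and -1.57 within code 3 (adjusted p = 0.314). Myl3 was -0.46 with the block (adjusted p = 0.806) and -0.91 within code 3 (adjusted p = 0.735). In the unloaded legs of the 4 rats of code 3 kept for 6 h to 4 d, rats 31, 33, 35 and 37, Myl3 read 13.36, 10.36, 5.72 and 8.57, against 12.27 to 13.55 in the other 9 rats of that window. Without rats 35 and 37 the fall of Myl3 in unloaded legs was -3.65 and that of Myl2 -3.32, both past the test.

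At 5 to 8 d against 6 h to 4 d, code 3 holds 2 rats against 4. There Mylk2 was -1.55 in loaded legs (adjusted p = 0.232) and -2.05 in unloaded legs (adjusted p = 0.0609), and with the code as a block -1.84 and -2.07, both past the test. Mybpc2 was -0.70 in loaded legs (adjusted p = 0.526) and -1.69 in unloaded legs (adjusted p = 0.0799) within code 3. With the block Mybpc2 was -1.13 in loaded legs (adjusted p = 0.110) and -1.49 in unloaded legs (adjusted p = 0.0060). Myl2 in unloaded legs was -1.0 with the block (adjusted p = 0.582) and -0.23 within code 3 (adjusted p = 0.957). In unloaded legs of the same windows, Myl3 and Mybph took the opposite sign, with 0.91 and -0.22 with the block and 1.81 and -0.30 within code 3, none past the test. Without rats 35 and 37, by contrast, Myl3 (-2.20), Mybph (0.95) and Mybpc1 (-0.35) passed at 5 to 8 d in unloaded legs.

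**Figure D5:**
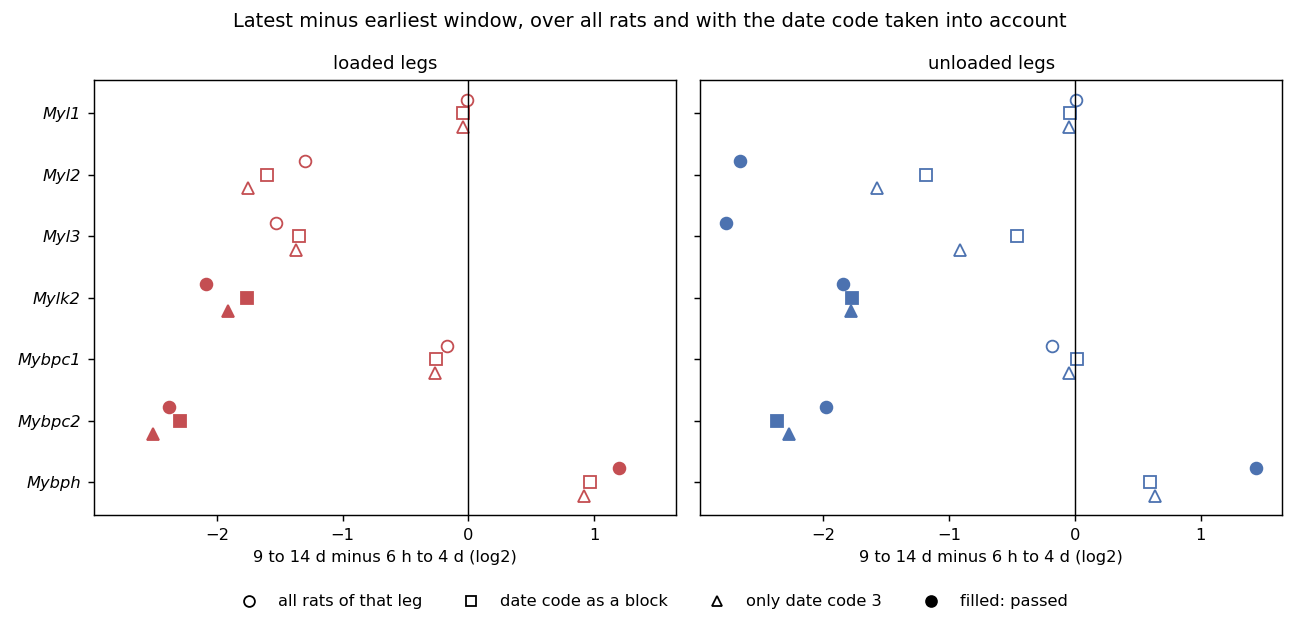
Difference of 9 to 14 d from 6 h to 4 d (log2) for the 7 genes, in loaded legs and in unloaded legs, over all rats (circles), with the date code as a block (squares) and within date code 3 (triangles). Filled symbols passed the test; Mylk2 and Mybpc2 are filled throughout, while Mybph is filled only over all rats and Myl2 and Myl3 only over all rats in unloaded legs.

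Over the 46 legs the 7 genes fell into different company. This is a description by Pearson r, and the points share rats and windows. Mylk2 ran closest to Pfkm (r = 0.95), the muscle phosphofructokinase, Car14, a carbonic anhydrase (r = 0.95), and Atp2b3, a plasma membrane calcium pump (r = 0.95). Mybpc2 ran closest to Pygm, muscle glycogen phosphorylase (r = 0.94), Rabgef1 (r = 0.94) and Aldoa, the glycolytic aldolase (r = 0.93), and the kinase and Mybpc2 ran with each other at r = 0.85. Myl3 was closest to Myh7 (r = 0.95), Myh2 (r = 0.89) and the slow troponin Tnnc1 (r = 0.89). Myl2 was closest to the slow tropomyosin Tpm3 (r = 0.96), the heavy chain Myh6 (r = 0.93) and Nnt, a mitochondrial transhydrogenase (r = 0.92), and Myl2 with Myl3 reached 0.88. Mybpc1 shared Myh6 (r = 0.83) and Tpm3 (r = 0.82) with Myl2. Mybph was closest to Cbfb (r = 0.85), Lig4 and Ap2a2, and was negatively related to Myl2 and Myl3 (r = -0.58 with each). Myl1 had no close partner, with Ptpn14 at r = 0.67 as its highest.

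Related genes were counted in lists chosen with earlier results of these data known, and without the date code. The counts are read against 44.2% of all genes past the test in loaded legs (2696 higher and 1414 lower of 9289) and 45.6% in unloaded legs (2663 higher and 1569 lower), and nothing particular to a list is read from them. Of 5 other measured light chains at 9 to 14 d against 6 h to 4 d, 1 rose and 1 fell in each leg, with medians of 0.02 in loaded legs and -0.07 in unloaded legs, against 0.08 and 0.07 over all genes. Myl12a, a regulatory chain of non-muscle myosin, rose by 0.94 in loaded legs (SE 0.13) and 0.75 in unloaded legs (SE 0.14), and Myl11 was the one that fell. Of 10 kinase, calmodulin and phosphatase genes, 1 rose and 3 fell in loaded legs, and 3 rose and 2 fell in unloaded legs, with medians of -0.05 and -0.19. Camk2a, a calmodulin-dependent kinase, fell by 0.95 in loaded legs (SE 0.24) and fell by 0.70 in unloaded legs (SE 0.18). Ppp1r12a, the targeting subunit of myosin phosphatase, rose by 0.60 in loaded legs (SE 0.12) and by 0.49 in unloaded legs (SE 0.09), while its striated muscle relative Ppp1r12b fell by 0.62 in unloaded legs (SE 0.15) and differed by -0.17 in loaded legs, not past the test. The calmodulin gene Calm2 rose by 0.94 in unloaded legs (SE 0.23) and differed by 0.59 in loaded legs (adjusted p = 0.0599). Mylk, the smooth muscle and non-muscle kinase, differed by -0.19 in loaded legs and -0.28 in unloaded legs, neither past the test. Of the heavy chains that carry these light chains, fast Myh4 fell by 0.66 in loaded legs (SE 0.20) and fell by 0.58 in unloaded legs (SE 0.23), and Myh1 fell by 0.36 in loaded legs (SE 0.12) and fell by 0.47 in unloaded legs (SE 0.16). The means of Myh4 and Myh1 in loaded legs at 6 h to 4 d were 13.67 and 13.43, so the limit of high signal given for Myl1 holds here too. Myh2 differed by -1.42 in loaded legs and -1.68 in unloaded legs, with SEs of 0.96 and 0.99, not past the test. Mylk3, the kinase of heart muscle, stayed below its array's median on all 46 arrays.

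Of 5 other myosin-binding and M-band genes, 1 rose and 2 fell in each leg, with medians of -0.21 in loaded legs and -0.37 in unloaded legs. Trim55, a ubiquitin ligase family member found at the sarcomere, rose by 1.08 in loaded legs (SE 0.18) and 1.34 in unloaded legs (SE 0.14). Myom1, which links thick filaments at the M-band, fell by 0.96 in loaded legs (SE 0.16) and fell by 0.79 in unloaded legs (SE 0.13). Titin, Ttn, fell by 0.21 in loaded legs (SE 0.06) and fell by 0.48 in unloaded legs (SE 0.09). Of 5 myosin assembly genes, 1 rose and 1 fell in loaded legs, and 3 rose and 1 fell in unloaded legs, with medians of 0.20 and 0.38. The chaperone Hsp90aa1 rose by 0.84 in loaded legs (SE 0.27) and 1.29 in unloaded legs (SE 0.24), and the methyltransferase Smyd1 fell by 0.81 in loaded legs (SE 0.23) and fell by 0.74 in unloaded legs (SE 0.19). The small heat shock protein Hspb1 rose by 0.57 in unloaded legs (SE 0.21) and differed by 0.42 in loaded legs, not past the test. Hsp90aa1 was also the only gene of these 4 lists past the test for loading over all rats, against 2.33% of all genes. It differed by -0.39 in loaded against unloaded legs (SE 0.09, limma adjusted p = 0.0226). Its call was not examined in other settings, and nothing particular to the lists is read from it.

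Slow-fibre, fast-fibre and developmental genes were counted in the same way. Of 10 slow-fibre genes, 1 rose and 0 fell in loaded legs and 0 rose and 2 fell in unloaded legs, with medians of 0.35 and -0.91. Those that fell in unloaded legs were Myh7 (-2.76, SE 0.89) and Tpm3 (-1.34, SE 0.44), whose loaded legs differed by -0.72 and -0.41, not past the test. Of 10 fast-fibre genes, 0 rose and 8 fell in loaded legs and 0 rose and 6 fell in unloaded legs, with medians of -0.36 and -0.46. Actn3, the fast alpha-actinin, fell by 1.47 in loaded legs (SE 0.22) and fell by 1.13 in unloaded legs (SE 0.20), and Myoz1, a Z-disc protein of fast fibres, fell by 1.03 in loaded legs (SE 0.16) and fell by 0.69 in unloaded legs (SE 0.15). Of 3 developmental genes, 2 rose in loaded legs and 1 in unloaded legs, with medians of 1.92 and 0.68. Tnnt2, the embryonic and cardiac troponin T, rose by 1.92 in loaded legs (SE 0.40) and by 1.75 in unloaded legs (SE 0.33).

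Markers of other cells were counted against the same shares of all genes, 44.2% in loaded legs and 45.6% in unloaded legs, and most of their counts lie near or below them. Of 5 macrophage markers, 2 rose in loaded legs and 3 in unloaded legs at 9 to 14 d, and their summed signal ranged from 9.63 to 11.87 in loaded legs and 10.02 to 12.36 in unloaded legs, against 9.62 to 11.11 and 9.67 to 10.80 at 6 h to 4 d. Of 5 fibroblast markers, 1 fell in loaded legs and 2 in unloaded legs, with sums of 12.73 to 13.40 and 12.71 to 13.36, against 12.73 to 13.93 and 12.65 to 13.86. Of 5 skeletal fibre markers, 2 fell in loaded legs, and 1 rose and 3 fell in unloaded legs, among them Cav3, the muscle caveolin, which fell by 1.45 in loaded legs (SE 0.29) and fell by 1.61 in unloaded legs (SE 0.26). Of 5 smooth muscle and pericyte markers 1 fell in loaded legs and 2 in unloaded legs, of 2 endothelial markers 1 in each leg, of 4 adipocyte markers 0 in loaded legs and 1 in unloaded legs. Of 3 tendon markers 1 rose and 2 fell in loaded legs and 1 rose in unloaded legs, and of 2 Schwann cell markers 1 rose in unloaded legs. Their part in the changes of the 7 genes was not tested. Of the heart markers, Myl7 did not pass, Myh6 fell by 0.85 in unloaded legs, and Nppa and Tnni3 stayed below their array's median on all 46 arrays.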

How the data were processed

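RNA of both legs of 23 rats was measured on Affymetrix arrays, 1 array per leg, and the authors deposited log2 values made with RMA, per the submitters' processing notes. The version is not given in the sources used here. RMA sets all arrays to 1 distribution, so values are relative to the whole array. Of 26208 probe sets, 15088 have 1 gene symbol in the platform annotation, 323 several and 10797 are not listed. Probe sets that exceeded the median of the array in question on 4 or more arrays were kept (14834), and the one with the highest mean stands for a gene (9289 genes). Tests used limma 3.58.1 in R 4.3.3, two-sided, with Benjamini-Hochberg adjustment over all genes and a threshold of 0.05. Loaded and unloaded legs were compared with the rat as a block, and windows within legs of 1 kind. Legs were paired by consecutive label numbers with the same window and date code, which is an inference, and rats carry their unloaded leg's label number as a name. The pairing of rats 17, 19, 21, 23, 27 and 51 is uncertain, though the labels alone do not set these rats apart. On simulated data 100% of 100 genes changed by 1 were recovered in the leg comparison, and 97% in unloaded legs at 9 to 14 d against 6 h to 4 d. Those genes were drawn at random from all genes, so this recovery does not carry over to Myl2 and Myl3. Their leg differences had SDs of 1.79 and 2.55, against 0.24 for the median gene. The simulated noise was normal, independent between genes and without a date code. Recovery between windows therefore says nothing about results that depend on that code. The number of arrays limits the precision. Named beside the 7 genes are partner genes, the 2 largest rises and falls of each gene list in unloaded legs at 9 to 14 d against 6 h to 4 d, and the 3 closest genes by correlation. The members and lists were chosen with earlier results of these data known. Alternatives covered the filter, probe set choice, cyclic loess, array weights, the variance prior, the block, the date code and rats left out.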

Additional observations from a re-analysis of the deposited data

Results flagged for a closer look

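In 42 groups of 4 to 6 legs or rats, 8 held a sample far from the others by Dixon's test, where chance gives about 1 in 20. Of these, 3 were in the loaded leg of rat 41 at 5 to 8 d, where Myl1 read 13.64 against 13.74 to 13.74 in the other rats, Mylk2 10.70 against 9.79 to 9.92, and Mybph 10.65 against 11.32 to 11.46. In rat 59, at 9 to 14 d, Mylk2 read 10.83 in the loaded leg, against 9.82 to 10.12 in the others, and Mybpc1 read 13.01 in the unloaded leg, against 12.46 to 12.54. Myl1 read 13.66 in the loaded leg of rat 51, against 13.75 to 13.78 in the other legs of 9 to 14 d. Mybpc1 read 12.05 in the unloaded leg of rat 55, against 12.61 to 12.66 in the other legs of 5 to 8 d. The leg difference of Mybph in rat 43 was 0.87, against -0.45 to -0.28 in the other rats of 5 to 8 d. The 42 groups share rats and legs and are not independent, so the 8 are not read as an excess over 1 in 20.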

How the results depend on the processing

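Of 2989 recomputed differences of the 7 genes, 2932 kept their side of the threshold, 42 lost the call, 15 gained it, and 0 called differences turned sign, while 160 uncalled ones did. The cause of these changes was not tested. With array weights the count of the 7 genes called was 2 for loading at 5 to 8 d and 2 for its difference from 6 h to 4 d (0 without), 5 in unloaded legs at 5 to 8 d against 6 h to 4 d (3 without), 6 at 9 to 14 d against 6 h to 4 d (5 without) and 1 at 9 to 14 d against 5 to 8 d (0 without). Within that count at 5 to 8 d, Mybpc2 lost its call and Myl3, Mybph and Mybpc1 gained one. The count of 3 in unloaded legs at 5 to 8 d was 1 with no filter, 1 with all 46 arrays and the rat as a random block, 0 within date code 3 and 6 without rats 35 and 37, and leaving out 1 rat gave 1 to 3, with 1 without rat 13, 19 or 41. The count of 5 in unloaded legs at 9 to 14 d was 2 with the date code as a block and 2 within date code 3. The count of 2 in loaded legs at 5 to 8 d was 1 with the date code as a block and 0 within date code 3, and 1 to 2 with 1 rat left out (1 without rat 53). Between the later windows it was 0 to 1 with 1 rat left out, with 1 in unloaded legs without rat 43 and 1 in loaded legs without rat 59. In the leg comparisons 0 of the 7 genes were called with no replicate block and 0 with the rat as a random block. A fit with 1 loading effect per window averaged over rats, an alternative chosen after seeing the data, also called 0. Over all genes, loading called 216, with 102 to 339 when 1 rat was left out and 1 to 473 in other settings. Other settings gave 0 to 5088 genes in loaded legs at 5 to 8 d (3620), 453 to 4584 at 9 to 14 d (4110), 16 to 5375 in unloaded legs at 5 to 8 d (3337) and 904 to 5137 at 9 to 14 d (4232). With 4 rats at 5 to 8 d, differences of that window are the least precise.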
